A study of Mus musculus with 3 samples.

Results

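The Ccl20 locus was examined in mouse T cells with all reads that fall between 83050000 and 83185000 on chromosome 1 of mm9, a window of 135 kb named for the chemokine gene Ccl20. Inside it lay 12 of the 27059 phospho-STAT3 sites found across the genome and 1 of the 15684 H3K4me3 regions. The window was chosen by its phospho-STAT3 and H3K4me3 reads, with results of these data known. Its number of sites, their spacing and strength, and its H3K4me3 therefore describe it and were not tested.

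CCL20 is a small secreted chemokine, a protein that draws cells along its gradient. Its receptor is CCR6, which Th17 cells carry on their surface, and Th17 cells also make CCL20 themselves. IL-6 signals through Janus kinases to STAT3, which is phosphorylated, enters the nucleus and binds DNA, and STAT3 is required for the Th17 state. H3K4me3 is the trimethylation of histone H3 at lysine 4, found mainly at active promoters.

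Chromatin immunoprecipitation followed by sequencing (ChIP-seq) gave 3 libraries. The STAT3-deficient cells carried Stat3fl/fl, FoxP3-GFP and CD4-Cre, a recombinase that deletes the floxed gene in T cells, and were profiled for H3K4me3. The wild-type cells carried Stat3fl/fl and FoxP3-GFP without Cre, and were profiled for H3K4me3 and for STAT3 carrying the serine phosphate (Ser727). All cells were sorted naive CD4+CD44-CD62L+ T cells, held for 72 h on plate-bound anti-CD3 and anti-CD28 with IL-6 at 10 ng/ml, TGF-b at 2.5 ng/ml and antibodies that block IL-2, IL-4 and IFN-g. IL-6 at 10 ng/ml was added again for 1 h before the chromatin was made. The age of the mice is not given in the labels, and nothing says whether animals were pooled.

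The libraries held 12075963 STAT3-deficient H3K4me3 reads, 12281399 wild-type H3K4me3 reads and 10127075 wild-type phospho-STAT3 reads. There was 1 library per group, so no value has a replicate check, no test between genotypes was made, and each interval speaks of counting error alone. Repeated reads had been removed before deposit, so copies with the same start and strand are not counted. Without molecular identifiers, they could not be told from separate molecules that share a start. The intervals count every remaining read as independent. Genes were not placed on mm9, so markers of the labelled cell type were not checked. Ccl20 stands inside the window only by the definition of the window. As a check of the genotype label, intervals without STAT3-deficient reads were ranked by the smaller count of the wild-type libraries. The first of them lay on chromosome 11 from 100753872 to 100757504 and held 0 STAT3-deficient reads, against 27 wild-type H3K4me3 and 73 phospho-STAT3 reads. The next lay on chromosome 6 from 67439236 to 67441735, with 0 STAT3-deficient reads against 24 wild-type H3K4me3 and 23 phospho-STAT3 reads. Both were picked for being empty and Stat3 itself was not placed, so the genotype label was not settled by this ranking.

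The DNA just before the start of Ccl20 is shown because it is the stretch from which the chemokine is transcribed. It comes from RefSeq on GRCm38.p6, plus strand, chr1:83116516-83116765, which is another build than that of the reads. These numbers cannot be set beside the mm9 positions below, even where they look alike. Capitals mark motif matches, and the last base printed is the one before the gene start.

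Ccl20 promoter: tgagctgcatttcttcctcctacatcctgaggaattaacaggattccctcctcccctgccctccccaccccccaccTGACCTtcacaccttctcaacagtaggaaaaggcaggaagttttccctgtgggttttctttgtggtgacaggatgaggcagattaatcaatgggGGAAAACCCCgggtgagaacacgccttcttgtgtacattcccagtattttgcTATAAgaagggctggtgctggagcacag

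Of 5 motifs searched on both strands, 3 matched once each, and their matches did not overlap. The first match, on the minus strand, was AGGTCA, the core letters read by ROR nuclear receptors such as the Th17 factor RORgt, and it began 174 bases before the gene start. The same letters stood in the matching 250 bases of 14.0% of 32851 promoters. An NF-kB motif, the site of a factor known to induce Ccl20 in inflammation, began 80 bases before the start, and 7.25% of promoters held one. TATAA, the core of the TATA box, began 28 bases before the start and was held by 22.8% of promoters. The STAT motif TTCNNNGAA did not occur in these 250 bases and was held by 7.02% of promoters. The AP-1 motif TGANTCA did not occur either, and 6.75% of promoters held it. The motifs say which letters are present, not which factor was bound. Sequences of the phospho-STAT3 sites themselves are not shown, since no genome of mm9 was used here. In the gene order of GRCm38.p6, the protein-coding neighbours of Ccl20 are Krtap28-13, a hair keratin-associated gene, and beyond it the thiamine transporter gene Slc19a3 on one side, and on the other Daw1, needed for motile cilia, and beyond it the kinase anchor gene Sphkap.

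Phospho-STAT3 reads in the window were gathered at its sites, and exceeded the mean density of their library by more than the H3K4me3 reads did. The window held 2155 phospho-STAT3 reads, 4.16-fold the number that the mean density of that library gives for this length. It held 819 STAT3-deficient H3K4me3 reads, 1.33-fold the mean density of that library, and 847 wild-type H3K4me3 reads, 1.35-fold. In bins of 1 kb, phospho-STAT3 ranged from 0 to 198 reads with a median of 7. STAT3-deficient H3K4me3 ranged from 1 to 36 with a median of 5, and wild-type H3K4me3 from 0 to 28 with a median of 6. The stretches within 1 kb of a site made up 16.8% of the window and held 63.2% of its phospho-STAT3 reads. Sites are called where these same reads pile up, so this share is a description and no test.

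**Figure D1:**
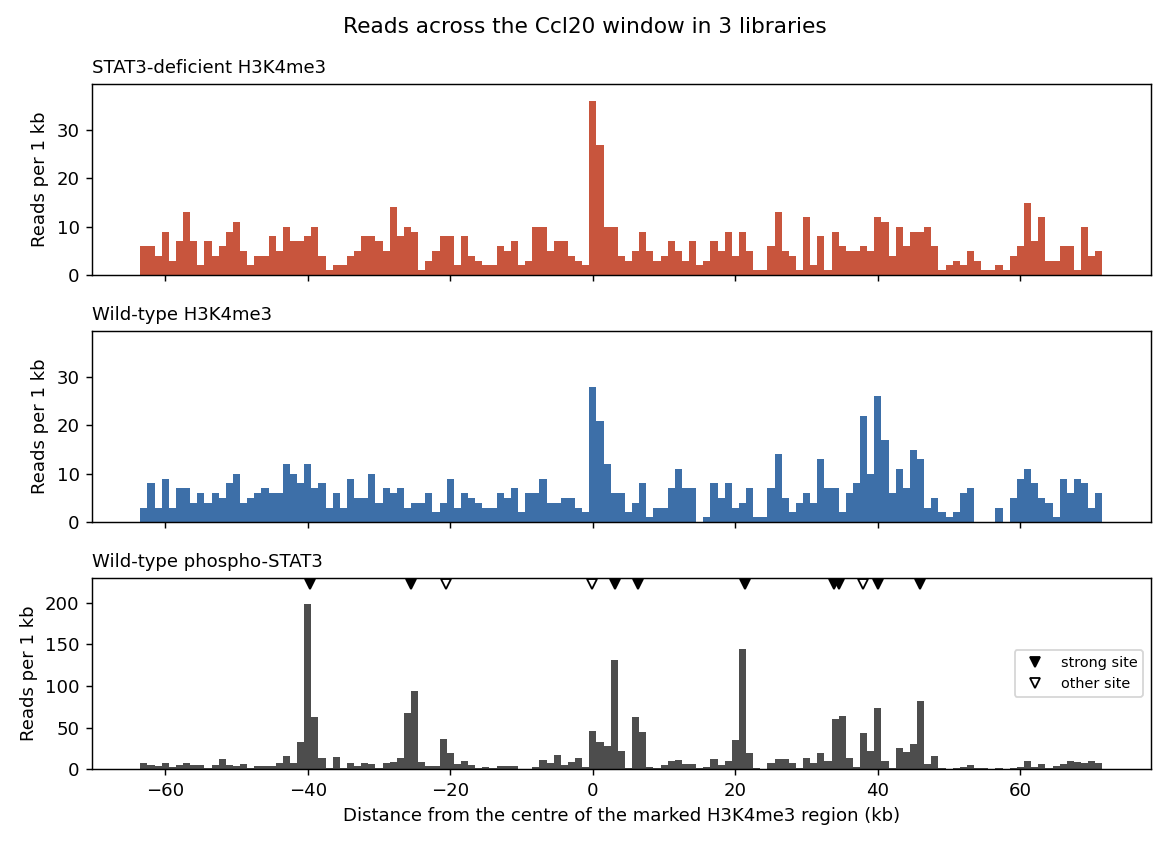
Reads per bin of 1 kb across the window in the STAT3-deficient H3K4me3, wild-type H3K4me3 and wild-type phospho-STAT3 libraries, by distance in kb from the centre of the marked H3K4me3 region. Triangles mark the 12 phospho-STAT3 sites, filled for the 9 strong ones. Both H3K4me3 libraries have their highest bin at the marked region, with 36 STAT3-deficient and 28 wild-type reads, and the wild-type library alone has bins over 20 reads near 40 kb.

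A site is a stretch of 200 bp or more with at least 10 phospho-STAT3 reads in its best 200 bp, some on each strand, and a Poisson p below 1e-08 over the density of the genome or of the surrounding 10 kb, whichever was higher. The excess of a site is the count in its best 200 bp minus the local expectation. Strong sites are the 25% of the genome's sites with the largest excess, from 26.1 reads up. Of the 12 sites, 9 were strong (75%), against 25% of all sites, a share that the definition fixes. The sites had a median of 46 reads, against 21 over all sites, and a median of 8.70-fold over the local expectation, against 9.92-fold over all sites. The fold was not higher than elsewhere although the counts were, and the local density of a site includes its own reads and those of its close neighbours.

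Sites are numbered 1 to 12 along the chromosome, and distances are given from the centre of the marked H3K4me3 region, negative towards lower coordinates. Site 1, from 83073550 to 83074249 at -39.65 kb, was the strongest of the 12. It held 120 reads in its best 200 bp (exact Poisson 95% interval 99.5 to 143), 16.8-fold over a local expectation of 7.16. Its excess ranked 105 of 27059, so 0.384% of all sites had a larger one. Its reads were split evenly over the strands, 60 on each. Within 250 bp of the centre, the median start of the minus-strand reads lay 100 bp past that of the plus-strand reads. Over the 12 sites this offset ran from 46 bp at site 3 to 124.5 bp at site 12. Sites are called and centred after the reads of each strand are moved 75 bp towards the fragment centre. That calling favours such an offset, so it is a description and no test of binding.

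Site 5, from 83116400 to 83116849 and 3.15 kb past the region centre, came second with 83 reads (66.1 to 103), 11.0-fold over the local expectation. It ranked 396, and its strands held 43 and 40 reads. Site 2, from 83087800 to 83088399, held 70 reads (54.6 to 88.4) at 14.2-fold and ranked 609. It leaned to the minus strand, with 27 plus and 43 minus reads. Site 7, from 83134400 to 83135099, held 64 reads (49.3 to 81.7) at 13.0-fold and ranked 806, with 32 reads on each strand. Site 12, from 83159150 to 83159649, held 54 reads (40.6 to 70.5) at 14.4-fold and ranked 1245. It leaned to the plus strand, with 32 plus and 22 minus reads. The interval of site 1 does not overlap those of sites 2, 7 and 12, and its lower end overlaps that of site 5.

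The other strong sites held fewer reads. Site 6, from 83119750 to 83120149, and site 9, from 83147900 to 83148299, held 46 reads each, at 7.37-fold and 8.71-fold. Site 11, from 83153350 to 83153799, held 41 reads at 8.69-fold, and site 8, from 83147200 to 83147549, held 35 at 7.26-fold. Those 4 ranked between 2179 and 4789. The 3 sites short of strong were site 4, from 83113300 to 83113499, with 26 reads, site 10, from 83151350 to 83151549, also with 26, and site 3, from 83092700 to 83092999, with 25. Their excesses of 19.9, 19.7 and 20.7 reads lie below the line of 26.1, and the weakest strong site, site 8, lies above it with 30.2. At a stricter Poisson p of 1e-12, 9 sites were called, since the Poisson p of sites 3, 4 and 10 was 8.7e-12, 1.6e-09 and 3.8e-09. At a looser p of 1e-06 no further site appeared.

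**Figure D2:**
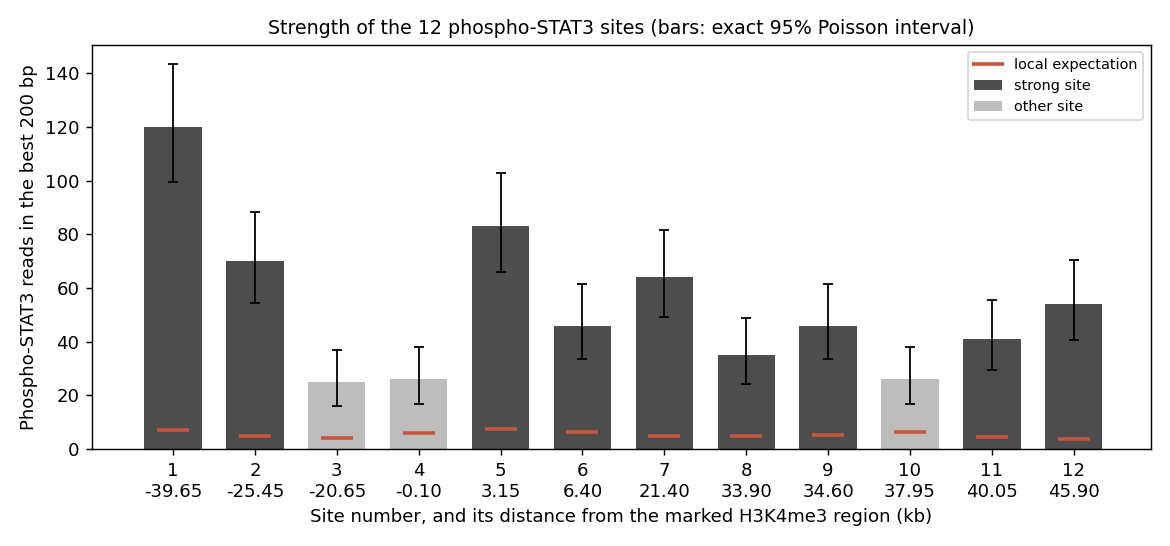
Phospho-STAT3 reads in the best 200 bp of each of the 12 sites, ordered along the chromosome, with the distance in kb from the marked H3K4me3 region under each number. Dark bars are strong sites, error bars are exact 95% Poisson intervals and red lines are the local expectation. Site 1 reaches 120 reads and site 5 83, while sites 3, 4 and 10 hold 25 or 26.

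The H3K4me3 libraries were low at the strong sites, but they do not replace an input library, which is lacking here. In the best 200 bp of the 9 strong sites, the STAT3-deficient H3K4me3 library held 1 to 3 reads and the wild-type one 1 to 8, against 35 to 120 phospho-STAT3 reads. Applied to the H3K4me3 reads of each genotype, the same criteria called 0 of the 12 sites in both, against 12.9% of all sites. With 12 sites, 0 is not far from that share. Within 2 kb of an H3K4me3 region lay 1 of the 12 sites (8.33%), against 32.9% of all sites. This too is a small count, from neighbouring sites of 1 chosen window. Site 4 was also called in the STAT3-deficient H3K4me3 library, and its best 200 bp held 12 STAT3-deficient and 12 wild-type H3K4me3 reads beside its 26 phospho-STAT3 reads. Without it the window held 11 sites.

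The sites were closely spaced, and no further site followed for 771 kb past the end of the window. From the first to the last site centre they spanned 85.55 kb. Gaps between neighbouring centres ran from 0.7 kb, between sites 8 and 9, to 20.55 kb, between sites 3 and 4. The median distance to the nearest other site was 3.25 kb, against 10.45 kb over all sites. The window was placed around this cluster, so the close spacing is a description and no test. Sites 1 to 3 lay at -39.65, -25.45 and -20.65 kb. Site 4 lay inside the marked region, with sites 5 and 6 at 3.15 and 6.4 kb and site 7 alone at 21.4 kb. The last 5 sites were packed between 33.9 and 45.9 kb. Outside the window, the nearest site before it was 47.0 kb from its edge and held 14 reads, and the nearest after it was 771 kb away and held 13, both short of strong.

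Few stretches of the genome held as many sites. Of 18934 stretches of 135 kb laid end to end, leaving out those without H3K4me3 reads, 57 held at least 12 sites (0.301%, Wilson 95% interval 0.232 to 0.390). At least 9 strong sites were held by 12 stretches (0.0634%), and 119 held at least as many phospho-STAT3 reads (0.628%). The median stretch held 0 sites, and the fullest held 19. A fixed grid can split a cluster, and the window was placed around this one, so the shares describe how the window compares and are no test.

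**Figure D3:**
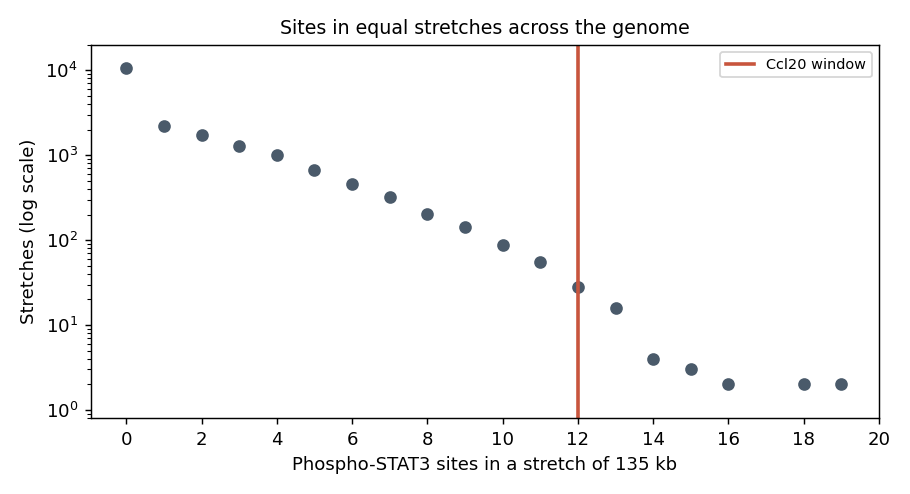
Number of stretches of 135 kb (log axis) by the number of phospho-STAT3 sites they hold. The red line marks the 12 sites of the Ccl20 window, and 57 of 18934 stretches hold as many or more.

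H3K4me3 marked a single region in the window, and no difference in its level between genotypes was detectable at this depth. Regions were sought in the summed reads of both genotypes, as windows of 200 bp with at least 12 reads, joined within 600 bp, and a region with at least 50 reads in all is called marked. The region ran from 83113200 to 83113799, which is 600 bp, and held 31 STAT3-deficient and 25 wild-type reads. Scaled so that the median of all 10971 marked regions is 0, its log2 ratio of STAT3-deficient over wild-type was 0.01 (95% interval -0.79 to 0.84). By library totals the ratio was 0.33 (-0.47 to 1.16), since this scaling lies 0.32 log2 units away. The region was a weak one, as 5.55% of marked regions held fewer reads. Called on 1 library alone, it was found in the STAT3-deficient reads, and 0 regions were found in the wild-type reads.

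The size rule used for H3K4me3 asks for 2-fold or more and an interval clear of no change. Across the genome, 1.16% of marked regions passed it as lower in STAT3-deficient cells and 1.01% as higher, and by library totals 0.492% and 2.91%. The marked region of the Ccl20 window was in neither group under either scaling. At a looser threshold of 1e-03, with at least 9 reads per 200 bp, it extended to 83114799. There it held 59 STAT3-deficient and 44 wild-type reads, a log2 ratio of 0.13 (-0.46 to 0.72). The extension has a second, smaller rise about 1.2 kb past the centre, where 1 bin of 200 bp held 12 STAT3-deficient and 6 wild-type reads. The strong site 5 lies beyond it, where 200 bp held 70 phospho-STAT3 reads but 3 STAT3-deficient and 2 wild-type H3K4me3 reads.

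At the same looser threshold 3 other regions appeared, and the nearest pair lay among the last sites. From 83151600 to 83151999, right after site 10, STAT3-deficient cells gave 2 H3K4me3 reads and wild-type cells 17. By library totals the log2 ratio was -3.06 (-6.22 to -0.99), and scaled by marked regions -3.38 (-6.54 to -1.31). Its 2 bins of 200 bp held 8 and 9 wild-type reads but 2 and 0 STAT3-deficient ones. The region was thus found through its wild-type reads, so its ratio describes it and is no test. From 83153000 to 83154399, over site 11, there were 20 STAT3-deficient and 34 wild-type reads, a log2 ratio of -0.74 (-1.62 to 0.10) by library totals and -1.06 (-1.94 to -0.22) scaled by marked regions. The last, from 83174600 to 83175199, held 15 STAT3-deficient and 13 wild-type reads with no site near, and its log2 ratio of 0.23 by library totals had an interval of -0.94 to 1.42.

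Thus 1 of the 4 looser regions passed the size rule as lower by library totals and 0 as higher, where 1.5% and 2.06% of 40891 such regions across the genome did. Scaled by marked regions, 2 of 4 passed as lower and 0 as higher, against 5.12% and 0.636%. The region from 83151600 is among the lower ones under both scalings. Since it was found through its wild-type reads, these counts describe the window and are no test. Both scalings are given because the background of the window stood near 0 by library totals and below 0 scaled by marked regions. Over the stretch that joins the pair, from 83151600 to 83154399, there were 27 STAT3-deficient and 61 wild-type reads. Its log2 ratio was -1.15 by library totals (-1.86 to -0.48), that is lower in STAT3-deficient cells. Scaled by marked regions it was -1.47, and with the background of the window subtracted it was -1.92 by library totals. The stretch was picked for its reads, so the value describes it and is no test, and 1 library per genotype leaves variation between cultures unmeasured. Over the window, 3 of 135 bins of 1 kb passed the size rule as lower in STAT3-deficient cells by library totals, and 0 as higher. Across the genome 0.958% and 0.811% of bins did, counting every bin with an H3K4me3 read, also those with too few reads to pass. Of the 3, the bin from 83153000 to 83153999 lay in this stretch, and the bin from 83151000 to 83151999 overlapped its start. The last, from 83181000 to 83181999, held 1 STAT3-deficient and 9 wild-type reads, with 9 phospho-STAT3 reads and no called site. Scaled by marked regions, the bin from 83146000 to 83146999 passed as lower too, with 1 STAT3-deficient and 7 wild-type reads, and no bin as higher. The share of bins across the genome under that scaling was not counted.

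**Figure D4:**
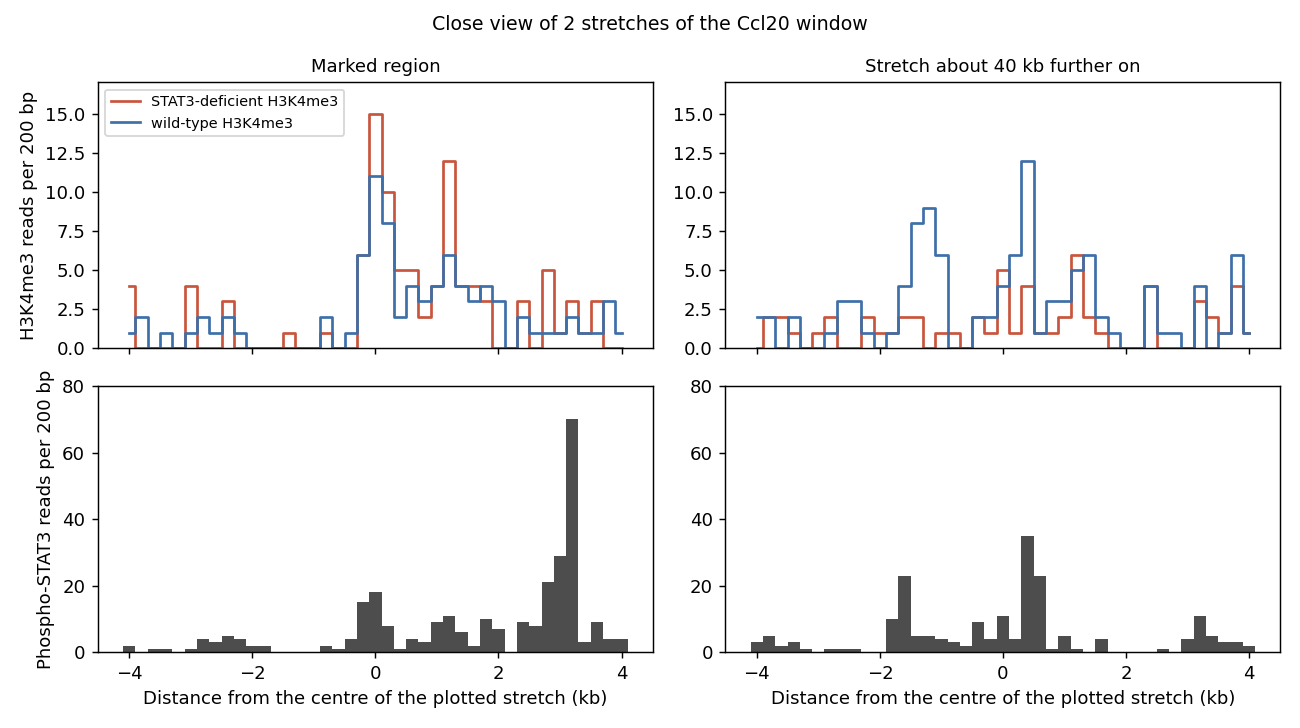
H3K4me3 reads per 200 bp (top) and phospho-STAT3 reads per 200 bp (bottom) around the marked region (left) and around the stretch about 40 kb further on (right), by distance in kb from the centre of each. At the marked region both genotypes rise together, to 15 STAT3-deficient and 11 wild-type reads. On the right the wild-type line reaches 9 and 12 reads at its peaks, where the STAT3-deficient line holds 0 and 4.

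H3K4me3 was also counted within 1 kb of each site. Around sites 10 and 11 these are largely the reads of the looser regions just described, so their values are no second observation. At site 4, inside the marked region, it was 44 reads in STAT3-deficient and 37 in wild-type cells, a log2 ratio by library totals of 0.27 (-0.39 to 0.95). At site 10 it was 10 STAT3-deficient and 34 wild-type reads, a ratio of -1.74 (-2.92 to -0.69). At site 11 it was 25 STAT3-deficient and 43 wild-type reads, a ratio of -0.76 (-1.53 to -0.01). Site 12 held 19 STAT3-deficient and 26 wild-type reads, and its interval of -1.36 to 0.48 included no difference.

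At the other sites low counts left wide intervals. Site 1, the strongest, had 19 STAT3-deficient and 21 wild-type H3K4me3 reads, a log2 ratio of -0.12 (-1.10 to 0.85). Site 5 had 17 STAT3-deficient and 13 wild-type reads, a ratio of 0.41 (-0.72 to 1.57). Site 2 went the other way from site 10, with 19 STAT3-deficient and 7 wild-type reads, a ratio of 1.46 (0.15 to 2.96), but scaled by marked regions its interval of -0.17 to 2.64 included no difference. At sites 3, 6, 7, 8 and 9 both libraries held 9 to 17 reads, and every interval included no difference under both scalings. The intervals around sites 8 and 9 share reads, as these sites are 0.7 kb apart.

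By library totals, 1 of the 12 sites passed the size rule as lower and 1 as higher, against 1.53% and 1.94% of all 27059 sites. Scaled by marked regions, 2 were lower, sites 10 and 11, and 0 higher, against 4.97% and 0.532%. The median log2 ratio of the 12 sites by library totals was 0.21, against 0.14 over all sites. Summed over all sites of the window, H3K4me3 within 1 kb was 214 STAT3-deficient and 232 wild-type reads, a log2 ratio of -0.092 (-0.37 to 0.18) by library totals. Scaled by marked regions it was -0.41 (-0.69 to -0.14), a shift that the rest of the window shared. Outside the marked region and more than 1 kb from any site, there were 5.40 STAT3-deficient and 5.49 wild-type reads per kb. The log2 ratio there was 0.00 (-0.16 to 0.16) by library totals and -0.32 (-0.48 to -0.16) scaled by marked regions, so the background of the window was level between libraries under the first scaling.

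**Figure D5:**
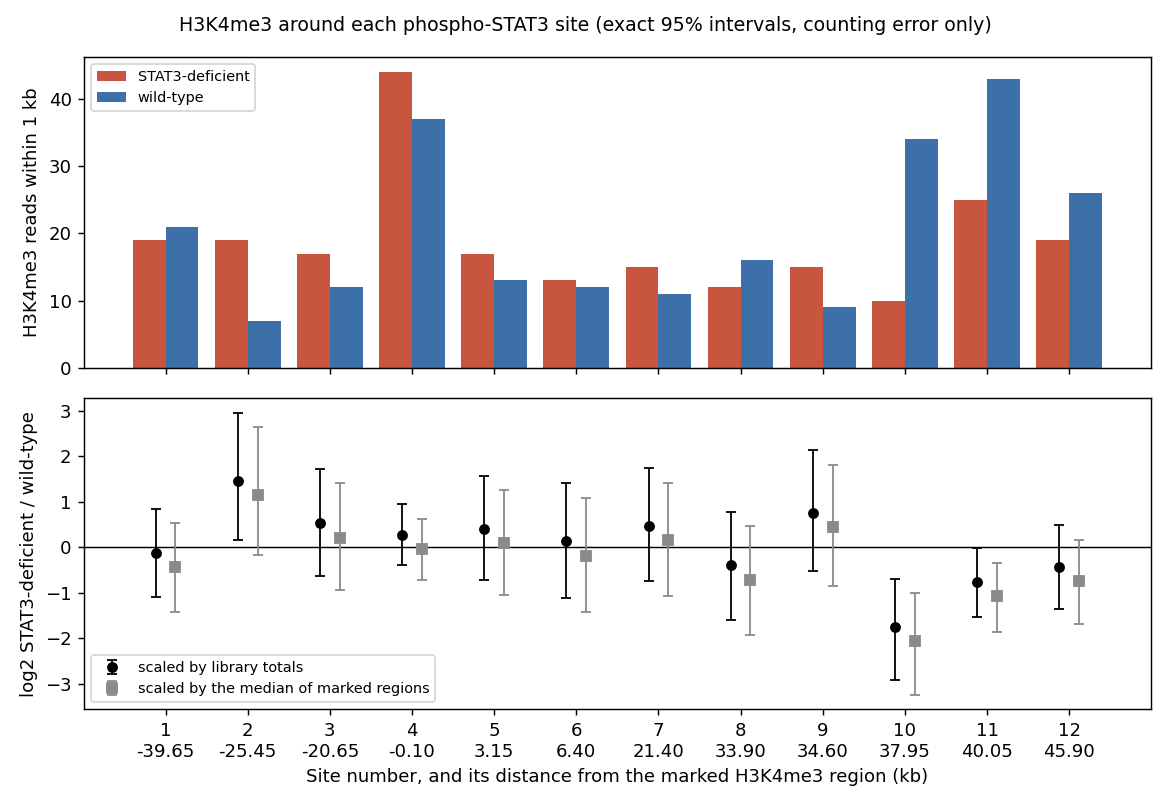
Top, H3K4me3 reads within 1 kb of each of the 12 sites in STAT3-deficient and wild-type cells. Bottom, log2 ratio of STAT3-deficient over wild-type with exact 95% intervals for counting error, by library totals (circles) and by the median of marked regions (squares). Site 10 lies below 0 under both scalings, with 10 STAT3-deficient and 34 wild-type reads, and most other intervals include 0.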

How the data were processed

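The deposited files hold aligned reads of 25 bp, 1 line per read with first and last base, strand and a code of matching bases, and no value per region. Reads were placed on mm9 and SICER was used, per the submitters' processing notes. The aligner is not given in the sources used here, nor is the version of SICER. Each combination of position and strand occurs once per file, so repeated reads had been removed before deposit, which caps the count of a very strong site. Libraries had 18 PCR cycles and about 250 bp with adapters, per the labels' protocols. Coordinates are as the files give them.

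Reads were moved 75 bp towards the fragment centre. Sites and regions were called over the whole genome, with a mappable share of 0.8. Ratio intervals are Clopper-Pearson intervals, and shares carry Wilson intervals. The site caller, on an even background, and the ratio intervals were tried on simulated data. The region caller was not. Every site and region of the window is named, and the 5 sites with the largest excess are given in full. The window, lists and motifs were chosen with earlier results of these data known. Planned lists of genes near Ccl20 and of cell type markers were not run, because the gene table is of GRCm38.p6. Other settings tried were read shift, window, thresholds, local background, scaling, joining and calling library. Python 3.11.15, numpy 2.4.6, scipy 1.17.1, pandas 2.3.3 and matplotlib 3.10.9 were used.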

Additional observations from a re-analysis of the deposited data

How the results depend on the processing

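The 12 sites became 9 to 12 under the other read shifts, windows, thresholds, read minimum and backgrounds tried, and 11 without the site also called in an H3K4me3 library. The strongest site held 160 reads in 300 bp. The number of H3K4me3 regions was 4 at a threshold of 1e-03, 6 with single windows and 0 when called on wild-type reads alone, so the one region rests on pooled or STAT3-deficient reads. Its ratio stayed within its interval under every alternative run. Scaling by library totals gave -0.092 around the sites, and scaling by marked regions gave -0.36 for the window outside regions. The later stretch was -1.92 after background subtraction, a setting chosen after seeing the data, as were all settings for that stretch. Across the genome the differing regions numbered 373 by library totals (319 higher, 54 lower) and 96 with at least 100 reads (56 higher, 40 lower), against 238 (111 higher, 127 lower). Strong sites alone gave 0.0634% of stretches. No paired analysis was possible because each group has 1 library. At 56 pooled reads, the marked region could show only large differences.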

Other observations

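The code of matching bases, which no comparison used, marked a mismatch to the reference in 3.91% of STAT3-deficient H3K4me3 reads of the window (Wilson 95% interval 2.78 to 5.46), 2.36% of wild-type H3K4me3 reads (1.53 to 3.62) and 3.43% of phospho-STAT3 reads (2.74 to 4.29). Chromosome 1 as a whole gave 3.82% in each H3K4me3 library and 4.49% for phospho-STAT3. A position counted as recurrently mismatched when 3 or more reads with separate starts carried a mismatch there, making up 30% or more of its reads. Chromosome 1 had 775 such positions, and 0 of them lay in the window. A window of 135 kb is a small part of that chromosome, so the 0 says little about the window.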
